A study of Mus musculus with 6 samples.

Results

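This account covers the collagens, laminins, matrix metalloproteinases with their Timp inhibitors, and integrin chains measured by RNA-seq in DDC-injured mouse liver. Members were taken by gene name from the deposited expression table, by the name stems Col, Lam, Mmp, Timp, Itga and Itgb followed by their chain numbers or letters, which gave 64 of 14499 genes. They comprise 8 fibrillar collagens, 5 basement membrane collagens, 10 other collagens, 9 laminins, 11 metalloproteinases, 3 Timp inhibitors, 9 integrin alpha and 3 integrin beta chains of matrix receptors, and 6 leukocyte integrin chains. Levels are in FPKM, a fragment count divided by gene length and by the total of the library. Testing was limited to genes with 1 FPKM or more in 3 or more libraries, which 49 members reached and 15 did not.

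Both groups were mice of mixed C57Bl/6; 129Sv background, 10 weeks of age, with 2 weeks of injury by DDC, a porphyrinogenic compound that blocks bile ductules and brings a ductular reaction with periductal scarring. The wild-type group (WT_DDC) and the group in which hepatocytes lacked Arid1a by conditional knockout (Arid1a_KO_DDC), Arid1a being a subunit of the BAF chromatin remodelling complex, had 3 total liver RNA libraries each. The promoter that drove the deletion is not given in the sources used here, and the labels leave unsaid whether libraries come from different mice. By the Y-linked Ddx3y given below, replicate 1 of each group was not from the same mouse as its replicates 2 and 3. Whether replicates 2 and 3 of a group are different mice is unknown. A p-value here reflects spread between libraries, which may be technical in part. By the label, other liver cells, which make much of the matrix, keep Arid1a; with the promoter not given, that was not tested.

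Between 11280 and 11712 genes per library reached 1 FPKM, and depth relative to WT_DDC replicate 1 was 0.903 to 1.16 by steps between low values. Arid1a_KO_DDC replicate 3 was the lowest in both, with 11280 genes against 11657 to 11712 in the other libraries. Absolute depth is unknown. Arid1a was at 7.85, 5.48 and 5.98 FPKM in wild-type and 6.61, 5.01 and 3.81 FPKM in knockout libraries, with overlap, and a level over the whole gene in whole liver does not check the labels. Replicate 1 of both groups carried the library numbers L0566 and L0567 and had the Y-linked Ddx3y at 0.0527 and 0.0227 FPKM, against 9.27 to 11.3 FPKM in replicates 2 and 3 (L0602 to L0605). That split is balanced over genotype, and the differences in L0602 to L0605 alone are gathered below. Hepatocyte markers (5 of 5 in the table, led by Alb) summed to 39107 to 50077 FPKM, as the tissue label has it. The highest sum was that of Arid1a_KO_DDC replicate 3, against 39107 to 44819 FPKM in the other libraries. The part of these traits of that library in the differences below was not tested.

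Fibrillar collagens form the tensile fibres of scar, and type IV collagen with laminins forms the sheets under bile ducts, vessels and sinusoids. Metalloproteinases cut these proteins and are held in check by Timp proteins, while integrins, each an alpha chain paired with a beta chain, tie cells to the matrix. In injured liver, activated stellate cells and portal fibroblasts are the main makers of fibrillar collagen, ductular cells carry laminin receptors, and leukocytes carry their own set of integrins.

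The members spanned a wide range of levels. Col18a1, which encodes the basement membrane collagen whose fragment is endostatin, had the highest level per length, with 197, 185 and 166 FPKM in wild-type and 190, 158 and 230 FPKM in knockout libraries. Both groups overlapped, and the knockout minus wild type difference was 0.06 on the log2(FPKM + 1) scale (SE 0.175, limma adjusted p = 0.924). Next in mean level were Mmp12, the macrophage elastase, Itgb1, the beta chain shared by most matrix receptors, Col3a1, Itgb5 and Mmp19. Mmp12 owed its place to replicate 1 of both groups, and in each library of replicates 2 and 3 it was below Itgb1, Col3a1 and Itgb5. In all, 15 members had a mean over the 6 libraries of at least 10 FPKM, 34 of 1 to 10 FPKM and 15 under 1 FPKM.

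**Figure D1:**
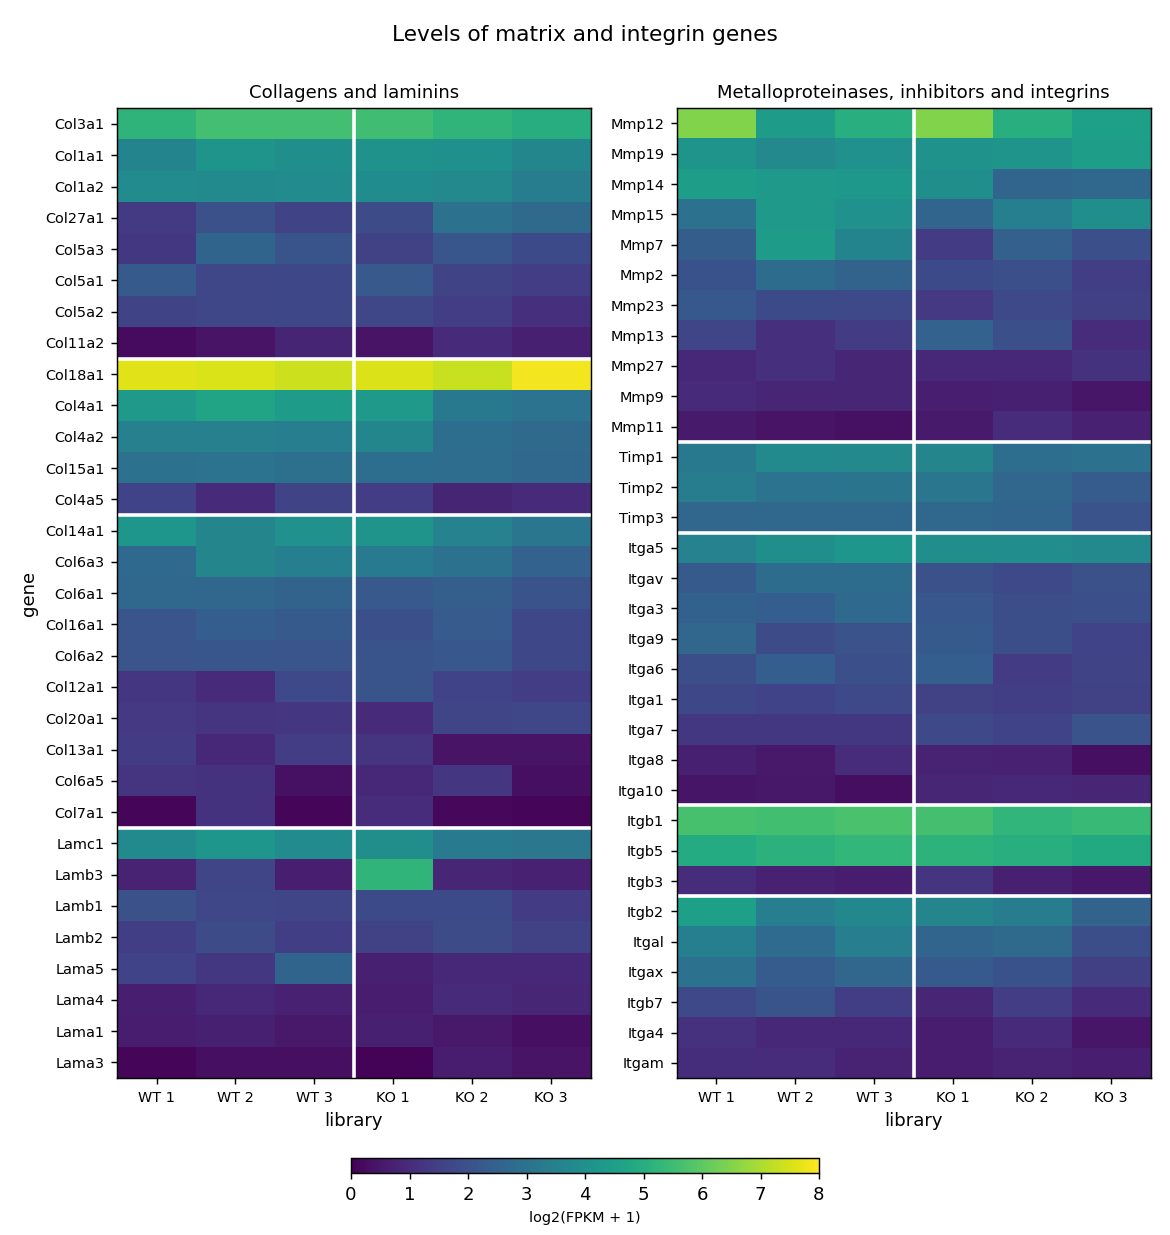
Colour gives log2(FPKM + 1) for the genes (rows, by role group, white lines between groups; 1 of the 64 is not shown) in the 3 wild-type (WT) and 3 knockout (KO) libraries. Col18a1 is the brightest row, Mmp12 is bright in replicate 1 of both groups, and Lamb3 is bright in knockout replicate 1 alone.

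No member passed the threshold between knockout and wild type, but most differences were negative. With limma and p-values adjusted by the Benjamini-Hochberg method across 11839 genes, 0 of 49 members were called, against 0.49% of all genes, and the lowest adjusted p among them was 0.242. At an unadjusted p under 0.05 there were 13 members, 11 lower and 2 higher in knockout, a share of 26.5% against 11.1% of all genes (6.5% lower and 4.65% higher). Of the 49, 39 (79.6%) had a negative difference, against 49.4% of all genes, and the median was -0.26, against 0.0034 over all genes. Without Arid1a_KO_DDC replicate 3 that median was -0.12, and without Arid1a_KO_DDC replicate 1 it was -0.36. Groups did not overlap for 12 members, 11 lower (22.4%, against 9.56% of all genes) and 1 higher (2.04%, against 7.09%). Both criteria were met by 10 members (20.4%, against 9.81%), of which 9 were lower, against 5.91%, and 1 higher, against 3.89%. The 9 and both sets of 11 include Lama5, which passed the filter only through its wild-type libraries and so could enter only as lower. In all, 2 tested members had a mean of at least 1 FPKM in wild type and under 1 FPKM in knockout, and 0 had the reverse. These shares are descriptions of a group of genes chosen with earlier results known. The 11 at an unadjusted p became 6 without WT_DDC replicate 2, 3 without WT_DDC replicate 3 and 4 without Arid1a_KO_DDC replicate 3. For groups of 3 the exact two-sided permutation test cannot give a p below 0.1, which is its value for each pair of groups that did not overlap.

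**Figure D2:**
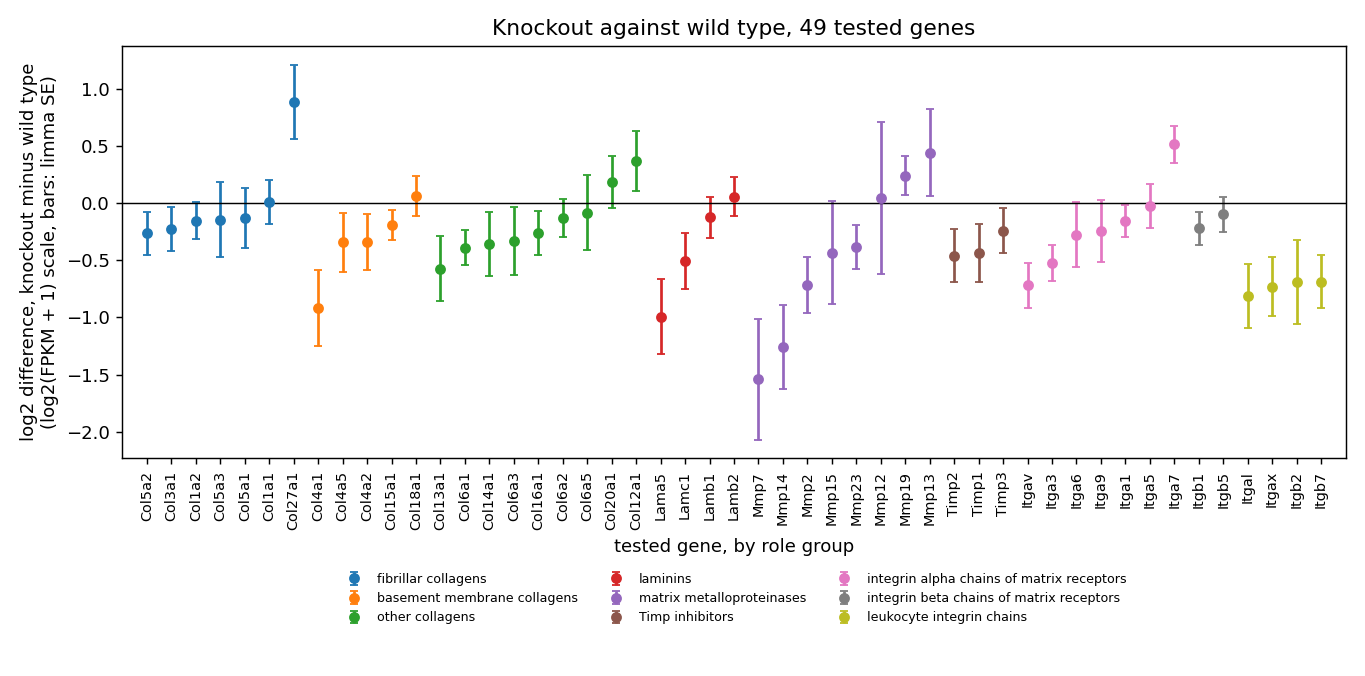
The vertical axis is the log2 difference, knockout minus wild type, with its limma standard error, for each of 49 tested genes ordered within role groups along the horizontal axis. Mmp7, Mmp14 and Lama5 lie lowest, Col27a1 and Itga7 highest, and all 4 tested leukocyte integrin chains lie below 0.

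Integrins that bind matrix ligands included the member with the smallest p. Itgav, the alpha chain of receptors that bind RGD-bearing ligands and release latent TGF-beta, was at 3.80, 6.04 and 6.04 FPKM in wild-type and 2.96, 2.43 and 2.93 FPKM in knockout libraries (chromosome 2, 83724397 to 83806916, GRCm38). All knockout libraries lay below all wild-type libraries, with a log2 difference of -0.72 (SE 0.194, limma adjusted p = 0.242). Its partner chain Itgb5 was at 29.6, 34.3 and 38.4 FPKM against 34.8, 32.4 and 28.1 FPKM, with overlap (-0.10, limma adjusted p = 0.855). The ratio of Itgav to Itgb5 was therefore 0.128 to 0.176 in wild-type and 0.0749 to 0.104 in knockout libraries, without overlap. The same holds for Itgav alone, so this ratio is not a separate result. Itgb6 and Itgb8, further epithelial and mesenchymal partners of Itgav, were not among the 64 members found by name in the deposited data.

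Itga3, the alpha chain of a laminin receptor of epithelia, was at 4.61, 4.29 and 5.62 FPKM in wild-type and 3.55, 2.78 and 2.88 FPKM in knockout libraries. The groups did not overlap (log2 difference -0.52, SE 0.158, limma adjusted p = 0.289). Itga7, which encodes a laminin receptor chain best known in muscle, differed in the other direction, with 1.44, 1.45 and 1.46 FPKM in wild-type and 2.41, 2.05 and 3.10 FPKM in knockout libraries. It was the 1 tested member wholly higher in knockout (0.51, SE 0.162, limma adjusted p = 0.305). Its annotated end overlaps that of Mettl7b, on the opposite strand, by 9 bases; Mettl7b was at 468, 558 and 737 FPKM in wild-type and 305, 482 and 489 FPKM in knockout libraries, and whether the counting used strand is not given in the sources used here. Itga10, a collagen receptor chain, was under the filter with 0.228 to 0.442 FPKM in wild-type and 0.808 to 0.874 FPKM in knockout libraries.

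The common chains varied little. Itgb1 was at 50.3, 46.9 and 51.2 FPKM in wild-type and 49.4, 37.2 and 41.2 FPKM in knockout libraries, with overlap through knockout replicate 1 (-0.22, SE 0.146, limma adjusted p = 0.636). Itga5, the fibronectin receptor chain, was at 10.7, 14.7 and 17.6 FPKM against 14.6, 14.2 and 12.7 FPKM (-0.02, limma adjusted p = 0.976; from -0.20 to 0.13 with 1 library left out). The ratio of Itga5 to Itgb1 was 0.213 to 0.343 in wild-type and 0.296 to 0.38 in knockout libraries, with overlap. Of the 7 tested alpha chains 6 differed negatively, and the median of the 7 was -0.24.

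Among the metalloproteinases, Mmp14 and Mmp7 had the most negative differences of all members. Mmp14, a membrane-bound collagenase that activates pro-Mmp2, was at 21.6, 18.5 and 18.1 FPKM in wild-type and 14.9, 5.15 and 5.33 FPKM in knockout libraries (chromosome 14, 54431612 to 54445364, GRCm38). Every knockout library was below every wild-type library, and knockout replicate 1 lay nearer to the wild type than the other two (log2 difference -1.26, SE 0.366, limma adjusted p = 0.27). Without Arid1a_KO_DDC replicate 1 the difference was -1.71 and passed (limma adjusted p = 0.0351), as it did in libraries L0602 to L0605 alone (-1.63, limma adjusted p = 0.0448); over all alternatives the adjusted p ran from 0.0351 to 0.614. Mmp2, the gelatinase that it activates, was at 3.03, 6.09 and 4.83 FPKM against 2.46, 2.86 and 1.80 FPKM, again without overlap (-0.72, SE 0.244, limma adjusted p = 0.342).

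Mmp7 (matrilysin), a secreted protease of epithelia that marks bile duct injury, was at 4.16, 20.5 and 11.3 FPKM in wild-type and 1.63, 4.47 and 2.84 FPKM in knockout libraries. Replicate 1 was the lowest library of each group, and the groups overlapped only between wild-type replicate 1 and knockout replicate 2 (-1.54, SE 0.528, limma adjusted p = 0.344). Mmp7 was chosen after its values were seen. Biliary markers (6 of 7 in the table, none at 0) summed to 126 to 386 FPKM in wild-type and 208 to 420 FPKM in knockout libraries, but most of that sum was Spp1. The median difference of the 6 was -0.64, and 5 were negative. Cldn4 fell (-1.42, limma adjusted p = 0.0386), and Sox9 (-1.21) and Epcam (-0.67) did not overlap between groups without passing (limma adjusted p = 0.0815 and 0.307). Their part in the values of Mmp7 was not tested. In bulk liver RNA, fewer cells of a type and less RNA per cell cannot be told apart.

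Mmp12 split by library set in its values, with both genotypes alike within a set. It was at 88.6 and 89.2 FPKM in replicate 1 of wild type and knockout, and at 20.4 to 32.0 FPKM in the other 4 libraries. The genotype difference was 0.05 (SE 0.662, limma adjusted p = 0.986). With genotype in the model, L0566 and L0567 were higher than L0602 to L0605 by 1.75 log2 units (SE 0.226), which did not pass over all genes (limma adjusted p = 0.0668). Mmp15, a membrane-type relative of Mmp14 chosen after its values were seen, went the other way, at 6.86 and 5.06 FPKM in replicate 1 and 9.95 to 18.8 FPKM in the others (-1.16, SE 0.186, limma adjusted p = 0.0934). In that comparison 0 of 49 members were called, against 0.127% of all genes, and 12 had an unadjusted p under 0.05 (24.5%, against 21.3% of all genes).

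The remaining proteases were at moderate or low levels. Mmp19 was at 16.7, 12.6 and 15.7 FPKM in wild-type and 16.0, 16.5 and 21.3 FPKM in knockout libraries (0.24, limma adjusted p = 0.659). Mmp9, the gelatinase of neutrophils and macrophages, was under the filter, with 0.991, 0.811 and 0.823 FPKM against 0.609, 0.634 and 0.389 FPKM and no overlap. Mmp11 was also under the filter without overlap, at 0.293 to 0.497 FPKM against 0.507 to 1.02 FPKM, but it overlaps Chchd10, a gene at 211 to 304 FPKM on the opposite strand, over 3367 bases.

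The Timp inhibitors all had negative differences without passing. Timp1, the inhibitor most induced in fibrosis, was at 8.47, 13.2 and 12.7 FPKM in wild-type and 11.4, 6.41 and 7.14 FPKM in knockout libraries. In replicate 1 the knockout was above the wild type, and in replicates 2 and 3 both knockout libraries were below both wild-type libraries (-0.43, SE 0.253, limma adjusted p = 0.589; -0.66 without Arid1a_KO_DDC replicate 1 and -0.29 without Arid1a_KO_DDC replicate 2). Timp2, which joins Mmp14 in activating pro-Mmp2, was at 9.38, 7.29 and 7.39 FPKM against 7.84, 5.28 and 3.99 FPKM (-0.46, SE 0.232, limma adjusted p = 0.521; -0.27 without Arid1a_KO_DDC replicate 3). The ratio of Mmp14 to Timp2 was 2.31 to 2.54 in wild-type and 0.975 to 1.90 in knockout libraries, without overlap. Mmp14 alone did not overlap either, so the ratio is not a separate result. The ratio of Mmp2 to Timp2 was 0.323 to 0.834 in wild-type and 0.314 to 0.542 in knockout libraries, with overlap. Such ratios have no share over all genes beside them. Timp3, which is bound to matrix, was at 5.27, 5.35 and 5.54 FPKM against 5.33, 5.11 and 3.09 FPKM (-0.24, limma adjusted p = 0.703; -0.04 without Arid1a_KO_DDC replicate 3).

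To show what sequence lies before the starts of the members with the largest differences, and of Timp1, the 250 bases upstream of their RefSeq starts are printed from the GRCm38.p6 table, 5′ to 3′ on the strand of the gene. The windows are chr14:54431348-54431597, chr9:7691840-7692089 and chrX:20869916-20870165, all on the plus strand. Capitals mark matches, on both strands, to AP-1 (TGANTCA), TEAD (GGAATG), the CCAAT box (CCAAT) and the GC box (GGGCGG), which overlap by 1 base where a reversed CCAAT box meets a GC box in Mmp14.
Mmp14: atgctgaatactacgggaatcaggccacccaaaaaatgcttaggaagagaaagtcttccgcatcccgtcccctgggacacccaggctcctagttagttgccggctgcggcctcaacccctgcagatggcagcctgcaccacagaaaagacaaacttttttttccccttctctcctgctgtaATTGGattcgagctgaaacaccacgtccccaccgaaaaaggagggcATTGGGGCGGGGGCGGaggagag
Mmp7: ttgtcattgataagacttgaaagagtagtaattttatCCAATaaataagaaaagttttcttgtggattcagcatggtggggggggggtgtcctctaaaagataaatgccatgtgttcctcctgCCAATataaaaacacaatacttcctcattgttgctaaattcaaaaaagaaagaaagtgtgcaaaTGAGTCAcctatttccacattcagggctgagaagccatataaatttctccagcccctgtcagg
Timp1: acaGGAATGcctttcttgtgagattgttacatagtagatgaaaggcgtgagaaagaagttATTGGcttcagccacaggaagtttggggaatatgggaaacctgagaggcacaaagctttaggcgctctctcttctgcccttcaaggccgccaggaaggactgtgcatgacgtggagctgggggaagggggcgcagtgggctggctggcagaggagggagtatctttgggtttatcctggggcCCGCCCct
The window of Mmp7 held an AP-1 match at -63 to -57, counting the base before the start as -1, and that of Timp1 a TEAD match at -247 to -242. The genes shown were picked by hand, with AP-1 set beside Mmp7 and TEAD beside Timp1. Their matches are therefore not a result about the members. Upstream windows were found for 47 of the 64 members, of which 4 held an AP-1 match (8.51%, against 6.85% of 27025 promoters of the same length) and 5 a TEAD match (10.6%, against 12.6%). A CCAAT box was in 31.9% of member windows, against 34.5% of all, and a GC box in 55.3%, against 33%. All members are protein-coding genes of the deposited data, while the 27025 promoters were not limited by gene type or level. The sets are therefore unlike, and no conclusion is drawn from these shares.

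**Figure D3:**
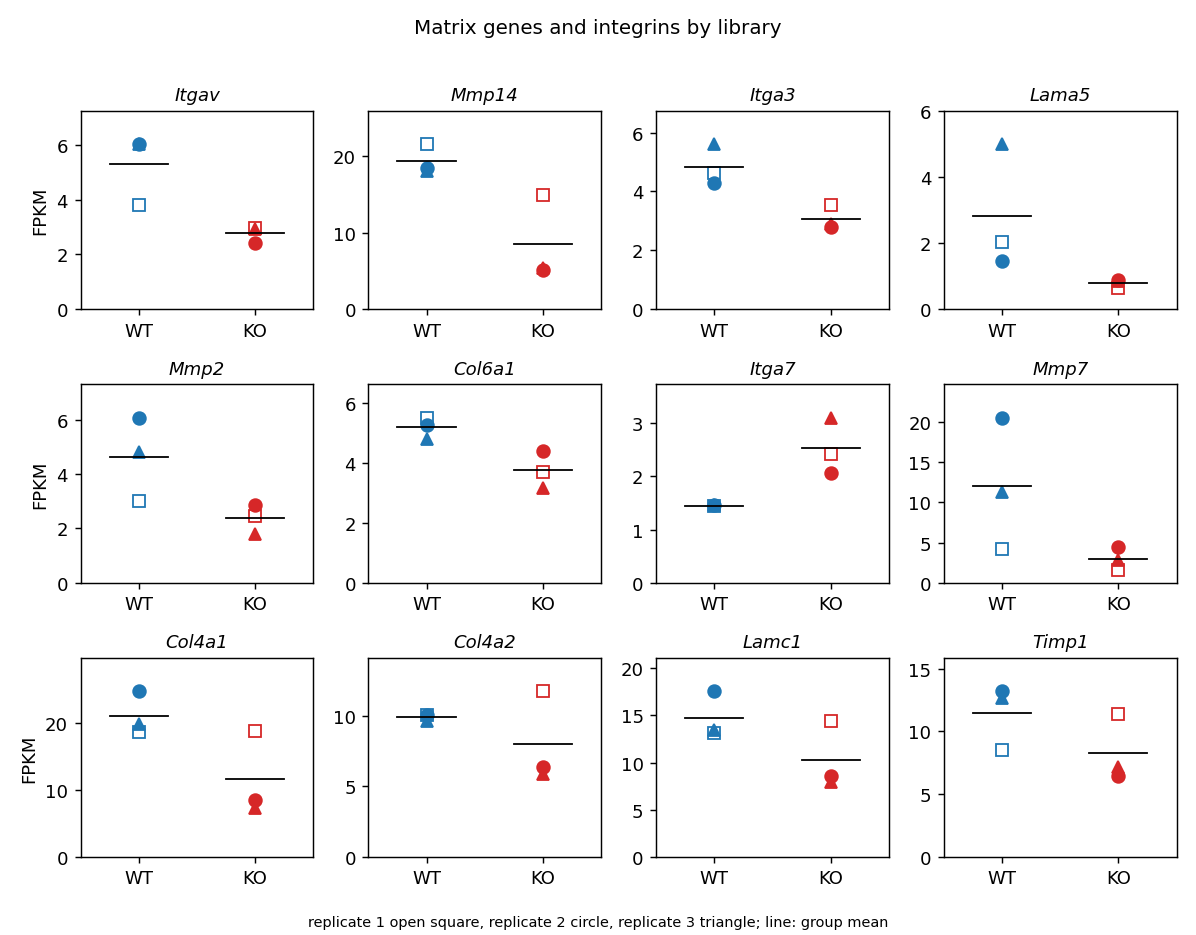
Each panel gives FPKM (vertical axis, from 0) of a gene in the wild-type (WT, blue) and knockout (KO, red) libraries, with replicate 1 as an open square and a line at the group mean. Knockout replicates 2 and 3 lie below all wild-type libraries for Col4a1, Col4a2, Lamc1, Mmp14 and Timp1, while knockout replicate 1 lies within their range for Col4a1, Lamc1 and Timp1, above it for Col4a2 and below it for Mmp14.

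Fibrillar collagens, the scar-forming members, overlapped between groups in every tested chain. Col1a1, the main chain of type I collagen, was at 11.3, 16.6 and 14.9 FPKM in wild-type and 16.1, 15.2 and 11.7 FPKM in knockout libraries. The groups overlapped throughout (0.01, SE 0.192, limma adjusted p = 0.992), and the sign turned with the library left out (-0.14 to 0.14). Its partner Col1a2 was at 13.4, 13 and 13.4 FPKM against 13.7, 12.7 and 9.49 FPKM (-0.16, SE 0.162, limma adjusted p = 0.77; -0.0096 without Arid1a_KO_DDC replicate 3). The ratio of Col1a1 to Col1a2 was 0.845 to 1.28 in wild-type and 1.18 to 1.23 in knockout libraries. Col3a1, the chain of type III collagen and the most abundant of the fibrillar set, was at 35.9, 47.7 and 47.5 FPKM against 45.3, 36.6 and 30.4 FPKM, with overlap (-0.23, SE 0.195, limma adjusted p = 0.718; -0.37 without Arid1a_KO_DDC replicate 1 and -0.09 without Arid1a_KO_DDC replicate 3). Of 7 tested fibrillar chains 5 differed negatively, and the median of the 7 was -0.14, which became -0.25 without Arid1a_KO_DDC replicate 1 and -0.0096 without Arid1a_KO_DDC replicate 3. Col27a1, a fibrillar collagen of cartilage chosen after its values were seen, had the most positive difference of all tested members. It was at 1.55, 2.95 and 2.13 FPKM in wild-type and 2.65, 7.08 and 5.78 FPKM in knockout libraries (0.89, SE 0.325, limma adjusted p = 0.379).

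Type IV collagen chains were below all wild-type libraries in knockout replicates 2 and 3 but not in knockout replicate 1. Col4a1 was at 18.6, 24.7 and 19.8 FPKM in wild-type and 18.8, 8.49 and 7.26 FPKM in knockout libraries. Knockout replicate 1 was close to its wild-type counterpart, while knockout replicates 2 and 3 were below all wild-type libraries (-0.92, SE 0.333, limma adjusted p = 0.373). Col4a2 was at 10.1, 10.1 and 9.69 FPKM against 11.8, 6.39 and 5.86 FPKM, so that knockout replicate 1 was the highest library and knockout replicates 2 and 3 the lowest (-0.34, SE 0.246, limma adjusted p = 0.662). These chains join in the common type IV collagen trimer, and their genes lie head to head on chromosome 8, Col4a1 from 11198423 to 11312826 on the minus strand and Col4a2 from 11312805 to 11449287 on the plus strand, so that their first exons overlap by 22 bases. The ratio of Col4a1 to Col4a2 was 1.85 to 2.44 in wild-type and 1.24 to 1.6 in knockout libraries, without overlap. Without Arid1a_KO_DDC replicate 1 the difference of Col4a2 was -0.62, and without Arid1a_KO_DDC replicate 3 it was -0.17. Col15a1, a collagen of vascular basement membranes, did not overlap but differed little, at 6.74 to 7.25 FPKM against 5.42 to 6.47 FPKM (-0.19, limma adjusted p = 0.648).

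Of the other collagens, type VI chains, which form beaded filaments around cells, gave the 1 pair of groups without overlap. Col6a1 was at 5.52, 5.28 and 4.80 FPKM in wild-type and 3.68, 4.41 and 3.16 FPKM in knockout libraries (-0.39, SE 0.153, limma adjusted p = 0.417). Its partner Col6a2 was at 3.32 to 3.44 FPKM against 2.31 to 3.55 FPKM, with overlap (-0.13, limma adjusted p = 0.817). The ratio of Col6a1 to Col6a2 was 1.43 to 1.66 in wild-type and 1.13 to 1.37 in knockout libraries, without overlap, as for Col6a1 alone. Col6a3 was at 5.69, 11.5 and 9.92 FPKM against 9.02, 7.07 and 4.67 FPKM (-0.33, limma adjusted p = 0.727), and the difference was -0.60 when WT_DDC replicate 1 was left out and -0.11 when Arid1a_KO_DDC replicate 3 was. Col14a1, a fibril-associated collagen, was at 17.3, 11.5 and 15.4 FPKM against 16.5, 10.7 and 7.78 FPKM, with overlap (-0.36, limma adjusted p = 0.692; -0.62 without Arid1a_KO_DDC replicate 1 and -0.12 without Arid1a_KO_DDC replicate 3). Of 9 tested members of this group 7 differed negatively, and the median of the 9 was -0.26.

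Beside the collagens, all 11 stellate cell and fibroblast markers were in the table, none at 0, and 10 had a negative difference. They summed to 150 to 275 FPKM in wild-type and 99.0 to 183 FPKM in knockout libraries, led by Dcn, with a median difference of -0.61, beside 0.01 for Col1a1 and -0.16 for Col1a2. The markers' part in the collagen values was not tested. Endothelial markers (8 of 8, none at 0) summed to 56.6 to 87.8 FPKM against 31.5 to 78.0 FPKM, and of these knockout replicate 1 had 78.0 FPKM and replicates 2 and 3 had 47.4 and 31.5 FPKM; their part in the values of Col4a1 and Col4a2 was not tested either.

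Among laminins, Lama5 had the most negative difference, and it passed the filter only through its wild-type libraries. Lama5 and Col13a1 were the tested members with a mean of at least 1 FPKM in wild type and under 1 FPKM in knockout. Lama5, the alpha chain of laminins under adult epithelia and vessels, was at 2.03, 1.46 and 5.0 FPKM in wild-type and 0.643, 0.866 and 0.847 FPKM in knockout libraries. The knockout libraries lay close together and the wild-type libraries did not, wild-type replicate 3 being the highest (-0.99, SE 0.329, limma adjusted p = 0.326). With a knockout library left out the difference ran from -1.03 to -0.93; with a wild-type library left out Lama5 no longer passed the filter, so no such value was obtained. Lamc1, the gamma chain of most laminins, was at 13.1, 17.6 and 13.5 FPKM against 14.5, 8.53 and 7.95 FPKM (-0.51, SE 0.242, limma adjusted p = 0.496), again with knockout replicate 1 within the wild-type range and knockout replicates 2 and 3 below it. Lamb1 was at 2.92, 2.25 and 2.21 FPKM against 2.49, 2.45 and 1.62 FPKM, with overlap (-0.12, limma adjusted p = 0.836). The ratio of Lamc1 to Lamb1 was 4.48 to 7.82 in wild-type and 3.48 to 5.81 in knockout libraries, with overlap.

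Lamb3, the beta chain of the epithelial laminin of skin-type anchoring contacts, stood apart in 1 library. It was at 36.7 FPKM in knockout replicate 1 and at 0.6 to 2.19 FPKM in the other 5 libraries, and it was not tested because it passed 1 FPKM in only 2 libraries. Lama3, an alpha chain with which it assembles, was at 0.0600 FPKM in that library, the lowest of the 6. The Lamb3 gene (chromosome 1, 193207699 to 193343878) spans Hsd11b1 and G0s2 on the opposite strand, and that library had 195 FPKM of Hsd11b1, the lowest of the 6, and 37.9 FPKM of G0s2, above the wild-type libraries and below the other knockout libraries. On the same strand, 4930570N18Rik overlaps Lamb3 over 18510 bases; every wild-type library listed it at 0, and knockout replicates 1, 2 and 3 had 5.05, 2.16 and 0 FPKM, so that it was highest in the library with the high Lamb3 value. Its part in that value was not tested. Reads of genes that overlap on opposite strands cannot be told apart where strand was not used in counting.

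Leukocyte integrins formed the group with the most negative median, -0.71 over 4 tested chains. Itgal, the alpha chain of LFA-1, which lymphocytes use to bind ICAM-1, was at 9.99, 6.02 and 9.77 FPKM in wild-type and 5.08, 5.73 and 2.76 FPKM in knockout libraries, without overlap (-0.81, SE 0.282, limma adjusted p = 0.354). Itgax, the CD11c chain of dendritic cells and macrophages, was at 7.04, 3.97 and 5.29 FPKM against 3.77, 3.05 and 1.85 FPKM, without overlap (-0.73, SE 0.258, limma adjusted p = 0.36). Itgb7, the gut-homing beta chain, was at 2.37, 3.23 and 1.82 FPKM against 0.823, 1.76 and 0.916 FPKM, also without overlap (-0.69, SE 0.235, limma adjusted p = 0.344). All of these chains were lower in the knockout of each library set.

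Itgb2, the beta chain shared by Itgal, Itgam and Itgax, was at 21.7, 9.77 and 12.3 FPKM in wild-type and 11.5, 9.54 and 4.87 FPKM in knockout libraries. The groups overlapped through knockout replicate 1 (-0.69, SE 0.370, limma adjusted p = 0.552), and the difference was -0.37 without Arid1a_KO_DDC replicate 3. Itgam, the CD11b chain of myeloid cells, was under the filter at 1.07, 1.01 and 0.717 FPKM against 0.551, 0.736 and 0.585 FPKM. The general leukocyte markers Ptprc, Coro1a and Laptm5 (3 of 3, none at 0) summed to 43.0 to 71.1 FPKM in wild-type and 27.6 to 45.4 FPKM in knockout libraries. Neutrophil markers (3 of 5, none at 0) summed to 29.8 to 55.3 FPKM against 12.1 to 24.8 FPKM. Most of that sum was S100a8 and S100a9, and only S100a9 did not overlap, while S100a8 and Retnlg did. T and NK cell markers (5 of 6, none at 0) summed to 7.99 to 12.5 FPKM against 2.25 to 9.96 FPKM, led by Nkg7. Cd3e (0.96 to 1.67 against 0.329 to 0.387 FPKM) and Cd8a (0.683 to 1.43 against 0.0602 to 0.328 FPKM), both under the filter, did not overlap, while Nkg7, Cd3g and Cd4 did. Macrophage and monocyte markers (8 of 8, none at 0) summed to 494 to 671 FPKM against 339 to 512 FPKM, with 7 of 8 negative and Lyz2 and Csf1r without overlap. B and plasma cell markers (4 of 5, none at 0) summed to 53.7 to 109 FPKM in wild-type and 2.68, 151 and 1.53 FPKM in knockout libraries, where knockout replicate 2 was the highest of its group, as it was for Itgb7. Dendritic cell markers (2 of 4, none at 0) summed to 1.88 to 3.52 FPKM against 1.47 to 2.45 FPKM. Relative to Ptprc, Itgal was at 1.66 to 2.18 in wild-type and 0.912 to 1.73 in knockout libraries, and Itgax at 0.901 to 1.54 and 0.611 to 1.28, both with overlap. The part of these markers in the values of the chains was not tested.

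**Figure D4:**
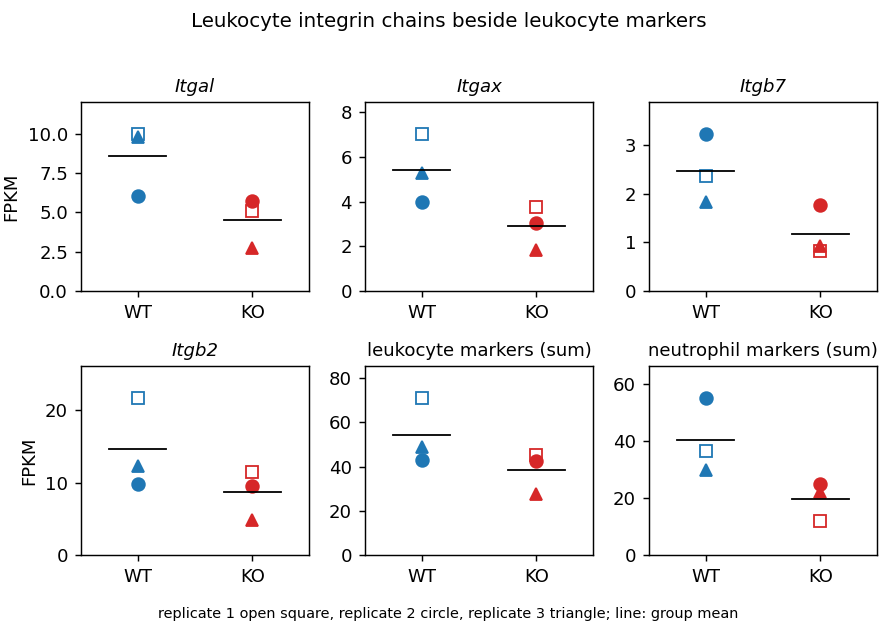
FPKM (vertical axis, from 0) of 4 leukocyte integrin chains and the summed FPKM of leukocyte and neutrophil markers in wild-type (WT, blue) and knockout (KO, red) libraries, with replicate 1 as an open square and a line at the group mean. Itgal, Itgax, Itgb7 and the neutrophil sum do not overlap between groups, while Itgb2 and the leukocyte sum do.

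Over all members the negative differences lay mostly in replicates 2 and 3, but not in every role group. In replicates 2 and 3, 32 of 49 members were lower in both knockout libraries than in both wild-type libraries and 4 were higher (65.3% and 8.16%, against 25.9% and 25.9% of all genes). The median difference was -0.36 there and -0.06 in replicate 1, where 29 of 49 were negative (59.2%, against 51.9% of all genes) and each group had 1 library. Fibrillar collagens had a median of -0.25 in replicates 2 and 3 and 0.28 in replicate 1, and Timp inhibitors -0.58 and 0.01. Leukocyte integrin chains were at -0.66 and -0.86, negative in both. Metalloproteinases were at -0.299 and -0.297, with 6 of 8 negative in replicate 1. Other collagens were at -0.325 and -0.134, with 7 of 9 negative in replicate 1. Of the 29 members named with a test, those that moved by over 1.5 times when L0602 to L0605 were fitted alone mostly became more negative. Among matrix chains Col3a1 was then at -0.50, Col1a2 at -0.25, Col4a2 at -0.61, Col6a3 at -0.79 and Lamc1 at -0.83. Timp1 was at -0.84, Timp3 at -0.37, Itga5 at -0.24 and Itgb5 at -0.26, Col1a1 turned to -0.23, and Col18a1 (0.12) and Mmp19 (0.39) became more positive. Col4a1 was at -1.38 without passing (limma adjusted p = 0.0648).

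An interaction term in limma, the difference in replicate 1 minus that in replicates 2 and 3, had an unadjusted p under 0.05 for 9 members (18.4%, against 9.05% of all genes), 8 of them positive (16.3%, against 4.48%). None passed over all genes by limma, where 0% of genes were called. The smallest p-values were those of Timp1 (1.23, SE 0.236, limma adjusted p = 0.413), Mmp14 (1.12, SE 0.221, limma adjusted p = 0.413) and Col4a1 (1.40, SE 0.297, limma adjusted p = 0.417). The library numbers and the Y-linked split coincide, so their parts in these values cannot be told apart.

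The members not described singly were those left once the named ones were taken out, so their range follows in part from that choice. The other 15 tested members had differences from -0.57 for Col13a1, a transmembrane collagen, to 0.44 for Mmp13, a collagenase, and the lowest limma adjusted p among them was 0.512. Of these only Itga1, a collagen receptor chain, did not overlap, at 2.03 to 2.39 FPKM in wild-type and 1.78 to 2.00 FPKM in knockout libraries. The 15 members that were not tested had means over the 6 libraries of 0.262 FPKM (Lama3) to 0.993 FPKM (Mmp27), apart from Lamb3. No member was listed at 0 in any library.

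**Figure D5:**
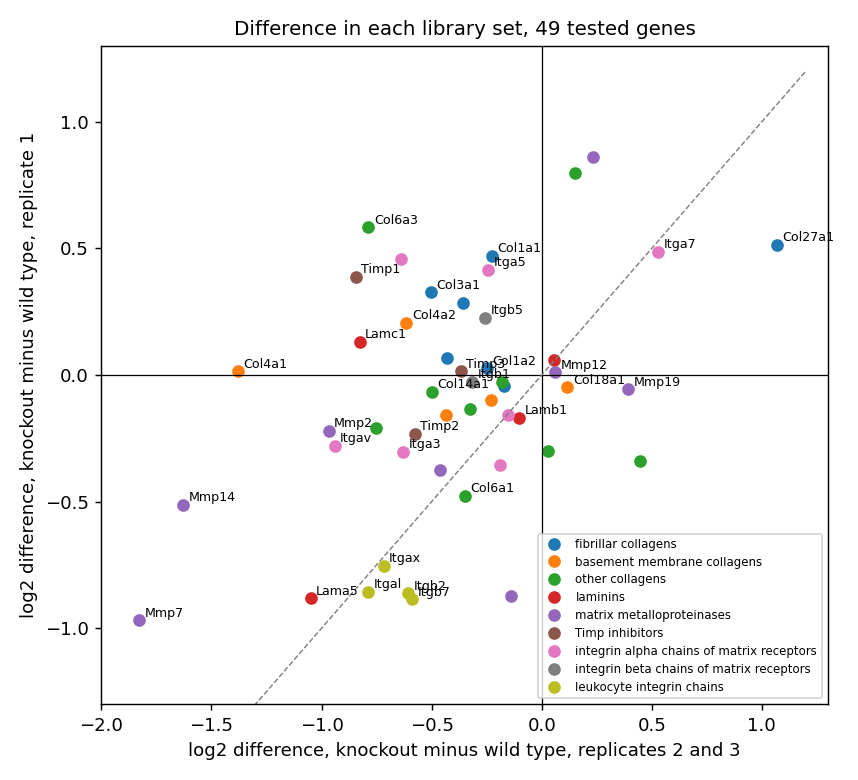
Each point is 1 of 49 tested genes, with the log2 difference (knockout minus wild type) in replicates 2 and 3 on the horizontal axis and in replicate 1 on the vertical axis, coloured by role group; the dashed line marks equality. Col4a1, Timp1, Lamc1 and Col6a3 lie left of the vertical 0 line and at or above the horizontal one, and the leukocyte integrin chains lie near the dashed line.

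Other genes of the same pathways had negative medians too, with 1 gene past the threshold in all. It was 1 of the 10 tested matrix receptors outside the integrins, beside 0.49% of all genes called. Of 10 tested matrix receptors outside the integrins all had a negative difference (median -0.26), and Ddr1, a collagen-activated receptor kinase, fell from 8.71, 11.1 and 8.95 FPKM to 3.24, 1.73 and 2.17 FPKM (-1.66, SE 0.202, limma adjusted p = 0.0317). Cd44, the hyaluronan receptor, was at 8.32, 8.83 and 10.2 FPKM against 5.93, 5.40 and 3.48 FPKM without passing (limma adjusted p = 0.205), and Dag1, which encodes dystroglycan, at -0.53. Integrin adhesion machinery had 17 of 20 tested genes negative (median -0.24). There, the tetraspanin Cd9 was at 110, 138 and 112 FPKM against 84.6, 41.3 and 41.8 FPKM (-1.16, limma adjusted p = 0.204), the focal adhesion kinase relative Ptk2b at -0.59 and the kinase Src at -0.84.

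Collagen folding and crosslinking genes had 11 of 17 tested members negative (median -0.15). P4ha2, a prolyl hydroxylase subunit, was at 3.82, 5.46 and 10.6 FPKM in wild-type and 2.08, 1.87 and 2.06 FPKM in knockout libraries, without overlap (-1.25, SE 0.313, limma adjusted p = 0.204). P3h1, another prolyl hydroxylase, was at 0.32 and Loxl1, a crosslinking oxidase, at -0.29. Other matrix proteins had 16 of 19 negative (median -0.29), with Fbln5 at -0.54, Ecm1 at -0.57 and Eln, elastin, at -0.41. Other extracellular proteases and inhibitors had 13 of 16 negative (median -0.29), with the urokinase receptor Plaur at -0.86, the cathepsin Ctss at -0.85 and Bsg, an inducer of metalloproteinases, at -0.31. None of the members of these last 3 lists, nor of the adhesion list, passed over all genes by limma. The share at an unadjusted p under 0.05 was 5.88% of folding genes, 5.26% of matrix proteins and 12.5% of proteases. It was 20% of adhesion genes and 20% of the other matrix receptors, against 11.1% of all genes.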

How the data were processed

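The 6 liver RNA-seq libraries were grouped by their titles. The authors deposited 1 table of log2 FPKM with 14499 genes; the submitters' processing notes name TopHat2 2.0.6, Cufflinks and the builds mm10 and GRCm38. Annotation, gene filter and strand setting were not stated there. In the deposited log2 values, -10 stands for an FPKM of 0 after an added offset of 0.000977; subtracting it made 100% of 60069 values between 1 and 50 numbers of 6 significant digits (relative tolerance 3e-08), against 0% without. FPKM are not counts, so log2(FPKM + 1) was fitted with limma 3.58.1 in R 4.3.3 (trend on mean expression, two-sided) on the 11839 genes with at least 1 FPKM in at least 3 libraries, with Benjamini-Hochberg adjustment over all of them and a threshold of 0.05. Differences on this scale understate the change of low genes.

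The members and gene lists were chosen with earlier results of these data known. Members named with every library are those past the threshold, those with groups that did not overlap and an unadjusted p under 0.05, the 2 highest of each role group and a fixed list of family members; up to 3 genes with the smallest p are named per pathway list. Mmp7, Mmp11, Mmp15, Itga1, Itga10, Col6a2, Col13a1, Col15a1, Col27a1, Mmp13, Mmp27 and Lama3 were named after their values were seen. The values of 1 member are not reported here. The comparison of library sets and the interaction term were added after the data were seen. Alternatives were pseudocounts of 0.1 and 5, a filter at 5 FPKM or none, scaling by median of ratios or quantiles, eBayes without trend or robust, a replicate block, a library number term, libraries L0602 to L0605 alone, and leaving out each library. On simulated data for knockout against wild type (11839 genes) the fit found 42 of 100 genes that had a change of 1 log2 unit and 91 of 100 that had 2, with 5 unchanged genes among 138 called. The changed genes were drawn from the better expressed ones, with independent normal noise and no difference between library sets. These rates therefore do not carry over to members at low levels or to the split by library set. Gene positions came from GENCODE M21 (GRCm38), which held all 64 member identifiers, and promoter sequences from RefSeq. Figures were drawn with matplotlib 3.10.9.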

Additional observations from a re-analysis of the deposited data

Results flagged for a closer look

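For 14 members the knockout minus wild type difference had opposite signs in the library sets and no overlap between groups in replicates 2 and 3. Replicate 1 had 1 library per group. The share of all genes that meet both conditions was not counted, so the 14 are not a result about the members. Without overlap in replicates 2 and 3, 25.9% of all genes were lower and 25.9% higher. In replicate 1, 51.9% of all genes were negative. The interaction of the knockout effect with library set, replicate 1 minus replicates 2 and 3 on the log2 scale, was 1.40 for Col4a1, 0.82 for Col4a2, 0.83 for Col3a1, 0.27 for Col1a2, 0.50 for Col5a2 and 1.37 for Col6a3. It was -0.79 for Col20a1, 0.96 for Lamc1, -0.45 for Mmp19, 1.23 for Timp1 and 0.38 for Timp3. Among integrin chains it was 0.66 for Itga5, 1.10 for Itga6 and 0.49 for Itgb5. None passed over all genes, the limma adjusted p running from 0.413 for Timp1 to 0.802 for Col1a2, and in replicate 1 the differences of Col4a1 (0.01), Timp3 (0.01) and Col1a2 (0.03) were near 0.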

How the results depend on the processing

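The count of members past the threshold was 0 higher under every alternative and 0 lower under all but 2: Mmp14 was the 1 member called without Arid1a_KO_DDC replicate 1 (-1.71) and in libraries L0602 to L0605 alone (1 lower; -1.63). With 1 library left out the count past the threshold was 0 to 1, that at an unadjusted p under 0.05 was 3 to 14 lower and 1 to 3 higher, and 35 to 40 members had a negative difference. A filter at 5 FPKM, which left 22 members, gave 18 negative differences and 3 lower and 0 higher at an unadjusted p under 0.05. The laminin median of -0.32 was -0.11 with no filter, -0.51 with a filter at 5 FPKM (1 gene), -0.46 in L0602 to L0605 and -0.48 to -0.03 with 1 library left out. The metalloproteinase median of -0.41 over 8 genes was -0.19 at 5 FPKM (4 genes). In L0602 to L0605 alone, where the filter was applied anew, it was -0.14 over 9 genes. Over the 8 genes tested in all libraries it was -0.299 there. The alpha chain median of -0.24 was -0.02 at 5 FPKM (1 gene) and -0.42 to -0.12 with 1 library left out. With 1 library left out the median of all members ran from -0.36 to -0.12, that of basement membrane collagens from -0.43 to -0.17, of other collagens from -0.34 to -0.11 and of Timp inhibitors from -0.66 to -0.27. Of 29 tested named members 20 had a value under all 17 alternatives and the others under 13 to 16, since some filters and left-out libraries removed them; 24 kept their direction in every value obtained. Itgb1 ran from -0.33 to -0.13, Itgb5 from -0.19 to -0.0088 and Mmp19 from 0.12 to 0.32 with 1 library left out. Near 0, Col1a1 turned to -0.23 in L0602 to L0605 and ran from -0.14 to 0.14 with 1 library left out, Col18a1 turned to -0.0043 under quantile normalization and ran from -0.07 to 0.20, Lamb1 from -0.20 to 0.0099, Mmp12 from -0.53 to 0.64 and Itga5 from -0.20 to 0.13; the cause was not tested.

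The replicate numbers were not taken as pairs: deviations of same-numbered libraries correlated at 0.346, 0.133 and 0.0212 for replicates 1, 2 and 3, and replicate 3 did not correlate best with its own number. With the replicate block 0 members passed in either direction, and 14 lower and 2 higher had an unadjusted p under 0.05. Absolute depth is unknown, so no counting interval is given, and members under 1 FPKM rest on few fragments.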
